A study of Mus musculus with 2 samples.

Results

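The genes described here encode pumps, sensors and channels that set the Ca2+ level in the cytosol of T cells. They are the plasma membrane pumps *Atp2b1* and *Atp2b4*, the pumps of the endoplasmic reticulum *Atp2a2* and *Atp2a3*, the store sensors *Stim1* and *Stim2*, the channel subunits *Orai1*, *Orai2* and *Orai3*, and the Ca2+-activated potassium channel *Kcnn4*. These 10 genes, of 20887 genes on the arrays named through RefSeq, were measured in TCRαβ+CD8αα+ IELs of Control and RFF4 mice. They were chosen by function and with differences between these same arrays already known, among them the disagreement of the *Atp2b4* probes. The contrast between the arrays is therefore given as a description of these genes. A probe was taken as a member where the transcript accession that the scanner file gives for it belongs to one of the 10 genes, which gave 19 probes. The accessions were NM_026482 (*Atp2b1*), NM_001167949 and NM_213616 (*Atp2b4*), NM_009722 (*Atp2a2*), NM_001163337 (*Atp2a3*), NM_009287 (*Stim1*), NM_001081103 (*Stim2*), NM_175423 (*Orai1*), NM_178751 (*Orai2*), NM_198424 (*Orai3*) and NM_008433 (*Kcnn4*).

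Control mice carried floxed *Rbpj* (Rbpjf/f), and RFF4 mice carried the same alleles with a CD4-Cre transgene, which acts in T cells from the thymus onward. The labels name no Cre for Control, whereas the study describes control mice as Rbpj+/+ with CD4-Cre. Both groups were C57BL/6, of 8–12 wk, with male and female mice pooled. Intraepithelial lymphocytes of the small intestine were sorted as TCRβ+CD8α+ cells without CD4, CD8β or TCRγδ. RNA pooled over several isolations was hybridized to 1 Agilent array of 1 color per group. With 1 array per group there is no test across samples, no p-value and no replicate check.

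When a T cell receives a signal through its antigen receptor, Ca2+ leaves the endoplasmic reticulum. STIM proteins in the membrane of that store sense the loss and open ORAI channels in the plasma membrane, which is called store-operated entry. KCNN4 lets potassium out as Ca2+ rises and so keeps the membrane voltage that draws Ca2+ in. SERCA pumps (ATP2A) return Ca2+ to the store and PMCA pumps (ATP2B) expel it from the cell. The prolonged signal acts through calmodulin and calcineurin on NFAT transcription factors.

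The *Rbpj* signal was not lower on the array labelled RFF4. Its brighter probe had a scaled log2 signal of 1.96 on the Control array and 2.28 on the other, and its second probe differed by 0.82. The files do not say whether these probes lie in the floxed exons, so they may check nothing, and the array is named by its label throughout. Here a scaled log2 signal is the log2 of the background-subtracted signal minus the 75th percentile of that array, and every difference is labelled RFF4 minus Control. The known Notch target genes *Heyl* and *Dtx1* were lower on the array labelled RFF4, with 1.85 against −1.95 and 6.65 against 3.03, differences of −3.80 and −3.62. The flippase gene *Atp8a2*, which the study took up from these arrays and which is therefore no independent check, differed by −2.99 and −2.67 over its probes. *Heyl* and *Dtx1* were likewise taken because the study names them as reduced, and other Notch targets are not given here. By real-time PCR the study also measured lower *Heyl*, *Dtx1* and *Atp8a2* in these cells of its *Rbpj*-deficient mice. The array values of these genes run in that same direction. Of 8 listed T cell genes, 7 are on the arrays and each was well above background on both. Among genes of cells gated out in the sort, *Cd8b1* (β chain of CD8) was well above background on the Control array only. *Cd4* had 1.67 on the Control array and 1.80 on the other, so its RNA was detected in cells sorted as lacking CD4.

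Each of the 19 probes has 1 spot per array, and all of them gave signals well above background on the Control array and on the other. A log2 difference between single spots had a technical SD of 0.16, taken from probes spotted 10 times on each array. The error model of the scanner software gave an SD of 0.20 to 0.21 for the probes of these genes. Neither covers the variation between mice. Over the brightest probe of each gene the median difference was 0.06, and over all 13512 genes with a difference it was −0.01. Scaling to the median in place of the 75th percentile lowers every difference by 0.17, and scaling to the spike-in controls lowers every difference by 1.11. A positive difference smaller than such a shift is therefore below 0 under that scaling.

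**Figure D1:**
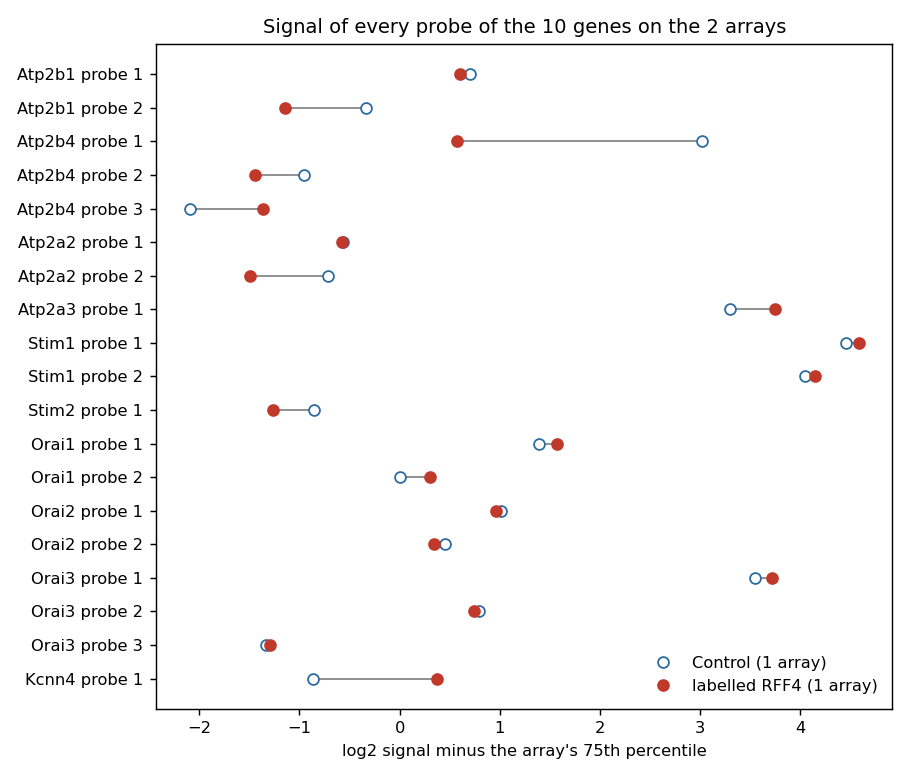
Scaled log2 signal (x axis, log2 signal minus the 75th percentile of the array) of each of the 19 probes (y axis, numbered within a gene from brightest to dimmest) on the Control array (open) and on the array labelled RFF4 (filled), with 1 array each. The widest gaps are those of the brightest *Atp2b4* probe, from 3.02 to 0.58, and of *Kcnn4*, from −0.87 to 0.37; positions of different probes are not comparable with each other.

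Since RBPJ is the factor whose gene is floxed here, the promoters were searched for its core motif. RefSeq windows of 300 bases, from 250 before to 50 after an annotated start, were at hand for 9 of the 10 genes in build GRCm38.p6. The motif searched was TGGGAA on both strands, which reads TTCCCA on the opposite strand. It occurred in 2 of the 10 windows of these genes (*Atp2b1* has 2 windows), those of *Atp2b4* and *Stim2*, and in 25.6% of all 32851 windows. The *Atp2b4* window, chr1:133753698-133753997 on the minus strand, holds 2 matches, in capitals, which begin at positions −190 and −163 from the start. The *Kcnn4* window, chr7:24370013-24370312 on the plus strand, holds 0. These windows are shown because *Atp2b4* and *Kcnn4* had the widest differences. A match is a string of letters and not a measured site, and its absence from a window says nothing about the factor. Both read 5′ to 3′ on the strand of the gene.
Atp2b4: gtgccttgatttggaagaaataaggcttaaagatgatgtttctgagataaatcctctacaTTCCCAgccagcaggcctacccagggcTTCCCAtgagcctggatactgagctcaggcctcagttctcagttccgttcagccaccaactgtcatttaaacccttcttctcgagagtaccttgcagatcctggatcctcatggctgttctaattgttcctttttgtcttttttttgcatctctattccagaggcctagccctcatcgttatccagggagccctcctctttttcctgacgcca
Kcnn4: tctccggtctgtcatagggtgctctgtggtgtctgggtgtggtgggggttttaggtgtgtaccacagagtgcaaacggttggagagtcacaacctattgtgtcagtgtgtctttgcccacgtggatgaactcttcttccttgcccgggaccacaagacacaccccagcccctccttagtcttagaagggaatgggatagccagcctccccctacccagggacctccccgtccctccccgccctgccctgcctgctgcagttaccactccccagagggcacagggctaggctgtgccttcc

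*Atp2b4*, which encodes the pump PMCA4, had the lowest difference of the 10 genes and the only one beyond 2-fold in that direction, and this rested on 1 of its 3 probes. The brightest probe, assigned to NM_001167949, had a background-subtracted signal of 4147 on the Control array and 338 on the other. On the scaled log2 scale this was 3.02 against 0.58, a difference of −2.45 or 5.45-fold. Of the 13512 genes, 0.266% were lower still. The second probe carries the same accession and went from −0.96 to −1.44, a difference of −0.49. The third probe, assigned to NM_213616, went the other way, from −2.10 to −1.36, a difference of 0.73.

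The 3 *Atp2b4* probes thus spanned 3.18 log2 units. Of 3326 genes with 2 or more probes well above background on both arrays, 1 had a wider span, *Gcnt2* with 4.85, named after its value was seen. The median span was 0.21. The disagreement was known when the genes were chosen, and a span tends to widen with the number of probes, so nothing is read from this rank. A plain mean over the 3 probes gave −0.73, which is not past 2-fold. A scaling that shifts all probes alike cannot alter this span. In the settings that could alter it, the span was 3.25 under normexp background correction, 3.16 under cyclic loess and 3.12 under quantile normalization, while the third probe had −0.37 after scaling to the spike-in controls. The files do not say which exons each probe covers.

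For *Atp2b1*, which encodes PMCA1, the plasma membrane pump found in most cells, the probes also differed from each other. The brighter probe had 0.70 on the Control array and 0.60 on the array labelled RFF4, a difference of −0.10, within the technical SD. The dimmer probe had −0.34 against −1.14, a difference of −0.81 or 1.75-fold. The span of 0.71 between these probes was exceeded by 13.0% of the 3326 genes.

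The same held for *Atp2a2*, which encodes SERCA2, the store pump of most cells. Its brighter probe had −0.56 on the Control array and −0.58 on the array labelled RFF4, a difference of −0.01. Its dimmer probe had −0.71 against −1.49, a difference of −0.78 or 1.71-fold, although both probes carry 1 accession. *Atp2a3*, which encodes SERCA3, the form of the store pump known from blood cells, has 1 probe. It had 3.30 against 3.75, a difference of 0.45 or 1.37-fold, which was −0.66 after scaling to the spike-in controls.

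**Figure D2:**
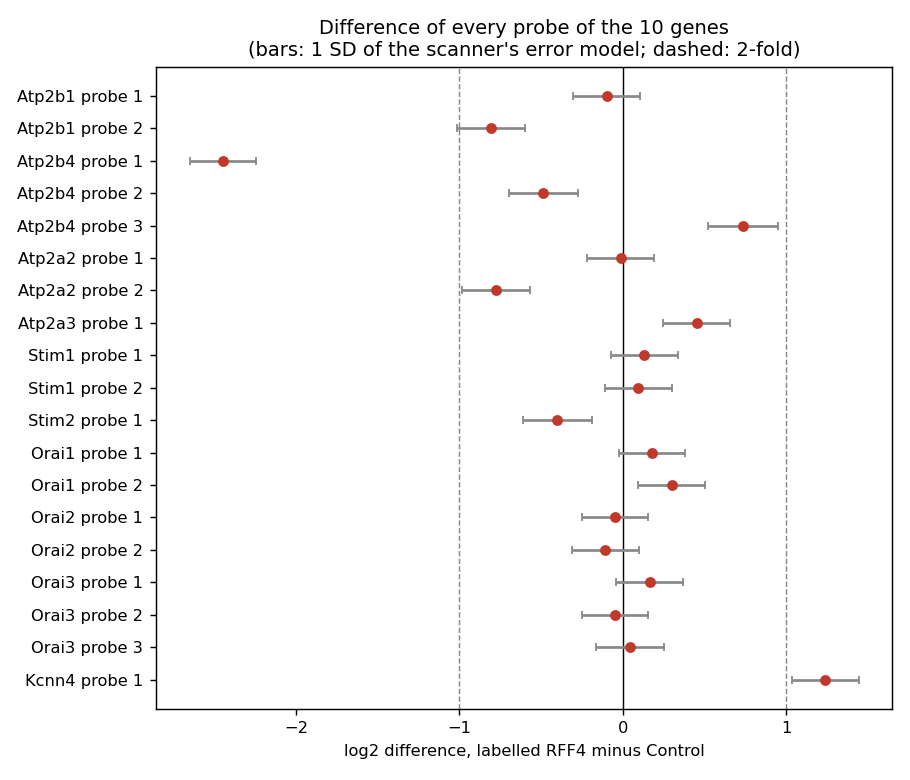
Log2 difference, labelled RFF4 minus Control (x axis), of each of the 19 probes (y axis, as in the plot of signals), with bars of 1 SD from the error model of the scanner software and dashed lines at 2-fold. The brightest *Atp2b4* probe (−2.45) and *Kcnn4* (1.24) lie beyond the dashed lines, and the other probes of *Atp2b4* lie at −0.49 and 0.73.

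For the genes of store-operated entry, none of the probes was past 2-fold with the 75th percentile scaling. *Stim1*, the main store sensor of T cells, had 4.45 against 4.59 with its brighter probe and 4.05 against 4.14 with the other. These differences of 0.13 and 0.09 lie within the technical SD. *Stim2*, the sensor that responds to smaller losses from the store, had −0.86 against −1.26 with its only probe, a difference of −0.40 or 1.32-fold. With normexp background correction that difference was −0.04, so it depends on how background is treated.

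*Orai1* encodes the pore subunit that store-operated entry in T cells depends on. It had 1.40 against 1.57 with its brighter probe, a difference of 0.18, and −0.00090 against 0.30 with the other, a difference of 0.30. *Orai2*, a related subunit that can join ORAI1 in the channel, had 1.01 against 0.96 and 0.46 against 0.35, differences of −0.05 and −0.11. *Orai3*, the third subunit, had differences of 0.16, −0.05 and 0.04 over its 3 probes. The probes of each *Orai* gene lay 0.06 to 0.21 apart, which is near or below the median span of 0.21 over all genes with several probes. Under median scaling the brightest *Orai1* and *Orai3* probes were at 0.01 and −0.01, and *Stim1* was below 0. With cyclic loess the brightest probes of *Atp2b1*, *Atp2a2* and *Orai2* were above 0, so the brightest probes of these genes have no settled direction. The second probes of *Atp2b1* and *Atp2a2* were below 0 in each setting, between −1.91 and −0.46 and between −1.88 and −0.40. Over the 8 genes other than *Atp2b4* and *Kcnn4*, all 15 probes lay between −0.81 and 0.45, and by their brightest probe between 23.5% (*Stim2*) and 75.4% (*Atp2a3*) of all genes were lower.

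*Kcnn4*, which encodes the potassium channel KCa3.1, had the highest difference of the 10 genes and the only one beyond 2-fold in that direction. Its single probe had −0.87 on the Control array and 0.37 on the other, a difference of 1.24 or 2.36-fold. The difference was larger for 8.89% of the 13512 genes. Before scaling, the signals were 280 and 293, nearly equal, while the other 18 probes of the 10 genes all had the lower signal on the array labelled RFF4. The 75th percentile of that array was lower by 1.17 log2 units, so *Kcnn4* was higher relative to the other genes on its array. The difference was 0.93 with normexp background correction, below 2-fold, and 0.13 after scaling to the spike-in controls, within the technical SD. In bulk RNA a change in the number of cells of a type and a change in RNA per cell cannot be told apart.

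Counted by the brightest probe, 1 of the 10 genes (*Atp2b4*) was lower by over 2-fold, as were 5.04% of all genes. In the other direction it was 1 gene (*Kcnn4*), beside 12.4% of all genes. At 4-fold, 1 gene was lower and 0 were higher, beside 0.585% and 1.85% of all genes. Counted by probe, 1 of 19 passed 2-fold in each direction, beside 5.86% and 11.5% of 28685 probes. Since the genes were chosen with this contrast known, nothing is read from these counts. Of all genes past 2-fold, 71.0% were higher on the array labelled RFF4, a share that was 55.1% with median scaling, 86.5% with neither the filter on dim probes nor the bound and 2.55% after scaling to the spike-in controls.

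**Figure D3:**
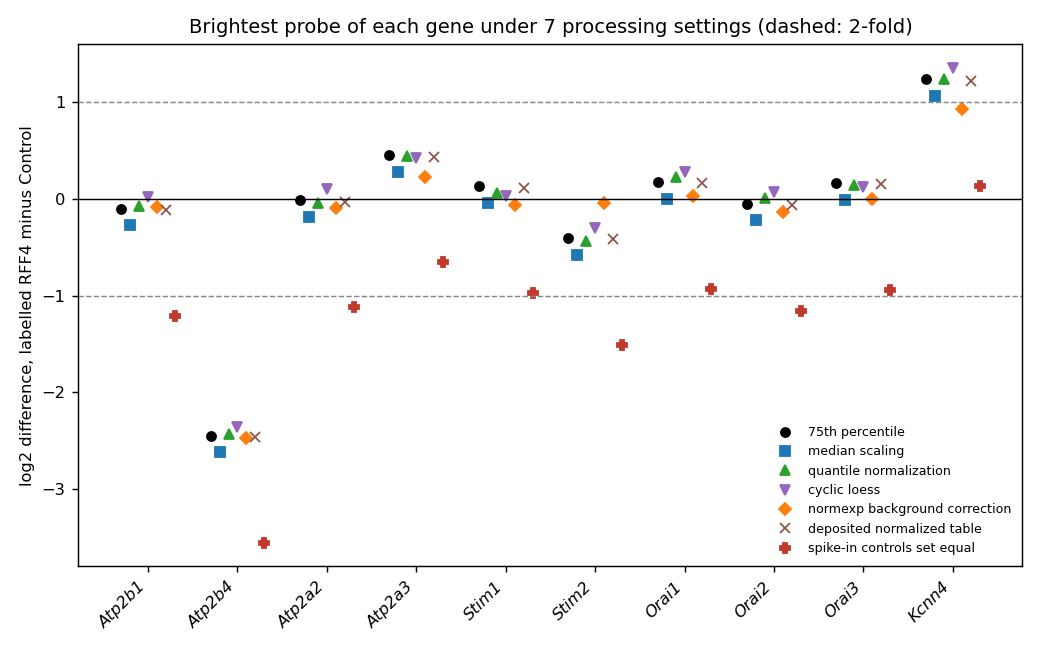
Log2 difference, labelled RFF4 minus Control (y axis), of the brightest probe of each of the 10 genes (x axis) under each setting of normalization and background correction (symbols), with dashed lines at 2-fold. *Atp2b4* is lower than −2 in each setting, *Kcnn4* is at 0.93 with normexp and at 0.13 after scaling to the spike-in controls, and that last setting places the other 8 genes between −1.51 and −0.66.

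*Kcnn4* was higher on an array where genes of other cell types were also higher. Epithelial genes were higher for 15 of 15, with a median difference of 1.52, and their summed scaled signal was 226 times the 75th percentile on the Control array and 680 times on the other. For macrophages and dendritic cells 12 of 12 measured genes, of 13 listed, were higher, with a median of 2.33, and summed signals of 56.3 and 132. Most of the Control sum came from *Itgax*, named after its value was seen. Its scaled log2 signal was 5.52 against 5.73, a difference of 0.21, so these sums say little about the other genes of the list. Of the 12 genes, *C1qa* and *C1qc*, named after their values were seen, were not well above background on the Control array. For B and plasma cells 3 of 4 measured genes, of 6 listed, were higher, with a median over the 4 of 1.74 and summed signals of 26.0 and 58.2, while *Cd79a*, also named after its value was seen, was well above background on neither array. T cell genes were higher for 6 of 7, with a median of 0.35, and sums of 1016 and 1312. Past 2-fold there was 1 T cell gene, *Cd2*, named after its value was seen, with 2.96 against 5.18, a difference of 2.22. *Kcnn4* is also known from epithelial cells and macrophages, which a sort for TCRβ and CD8α should remove, and the part of other cells in its difference was not tested.

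The other genes that handle Ca2+ were taken from a list of 66, of which 65 are on the arrays and 58 had a difference. Of these, 29 were below 0 and 29 above, with a median of 0.0026, and the direction of this balance depends on the scaling. Past 2-fold there were 1 lower gene and 3 higher genes, beside the 5.04% and 12.4% of all genes. The lower gene was *Trpm7*, a plasma membrane cation channel joined to a kinase, with 2.23 against 0.94, a difference of −1.29. The higher genes were *Trpv2*, another cation channel, with 0.84 against 2.39 (1.56), and *Itpka*, a kinase that converts the store-releasing messenger IP3, with 0.16 against 1.56 (1.40). *Mcub*, the subunit that restrains the mitochondrial Ca2+ uniporter, was not well above background on the Control array and was at least 5.05-fold higher.

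In the groups of this list the medians lay between −0.13 and 0.25. The 9 measured genes of Ca2+ release from the store (phospholipases, IP3 receptors, IP3 kinases and a ryanodine receptor) had a median of −0.13, with 7 below 0. The 5 measured regulators of STIM and ORAI had a median of −0.01, with a range of −0.50 to 0.82. The 16 genes of calmodulin, calcineurin and NFAT ranged from −0.84 to 0.69, with a median of −0.08 and 0 past 2-fold. The 7 genes of mitochondrial uptake had a median of 0.25, the 4 measured genes of the store lumen and its leak 0.14, and the 9 other membrane channels 0.02. The 5 regulators of KCNN4, which set the activity of the channel, had a median of 0.17 and 0 past 2-fold. Of the 7 closest relatives of the pumps and of *Kcnn4*, 3 had a difference, between −0.19 and 0.63, and 3 were well above background on neither array. The remaining one, *Kcnn3*, named after its value was seen, was well above background on the Control array only, at −5.24, which lies below the lowest such signal on the other array (−4.29), so no difference could be given.

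**Figure D4:**
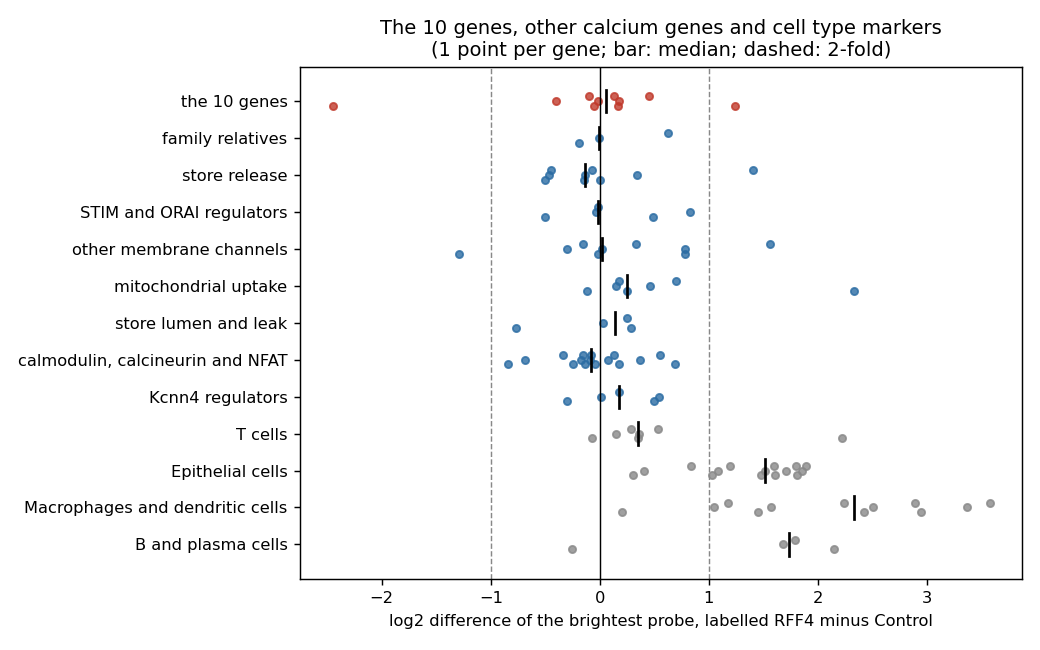
Log2 difference of the brightest probe, labelled RFF4 minus Control (x axis), for the 10 genes, the groups of other Ca2+ genes and the cell type marker lists (y axis), with 1 point per gene, a bar at the median and dashed lines at 2-fold. The groups of Ca2+ genes have medians between −0.13 and 0.25, whereas the epithelial list has 1.52 and the macrophage and dendritic list 2.33; *Mcub* in the mitochondrial group and *C1qa* and *C1qc* in the macrophage list are drawn at their lower bounds.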

How the data were processed

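RNA of sorted TCRαβ+CD8αα+ IELs was measured on 2 SurePrint G3 mouse arrays of 1 color, 1 for Control and 1 labelled RFF4. Per the labels, the authors extracted the spots with Agilent Feature Extraction 10.7.1.1. The deposited intensity of each spot is background-subtracted, on a linear scale and not normalized between arrays. The authors also deposited a table normalized in GeneSpring, which by its values is on a log2 scale and centered per probe, and 55821 of its 56745 lines with values served as an alternative. Its settings are not given in the sources used here.

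From the intensities, controls and spots flagged as outliers were removed and log2 values of repeated spots were averaged. The 75th percentile over gene spots was subtracted, 8.99 for Control and 7.82 for the array labelled RFF4. Of 59305 gene spots, 57.2% and 49.7% were well above background. A probe counted as such if at least 50% of its spots were, and was kept if so on at least 1 array. Where the dimmer signal was not well above background, the difference is a bound against its own signal or, if higher, the dimmest one on that array that was (−5.51 and −4.29 scaled), and none is given where the brighter signal lies below that. Of 55679 probes, 27509 were named through RefSeq (assembly GRCm38.p6), and genes were represented by their brightest probe. The number of arrays limits the precision.

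The members and lists were chosen with earlier results of these data known. All 10 genes were named with every probe, other Ca2+ genes if past 2-fold, *Rbpj*, and up to 4 cell type markers where a result turned on them. *Gcnt2*, *Kcnn3*, *Heyl*, *Dtx1*, *Atp8a2* and 3 markers near background were named beyond this rule. Alternatives were median, quantile, cyclic loess and spike-in scaling, normexp (offset 50), the deposited table, outliers kept, 2 other filters, the mean of probes, and 4-fold. The scaling and the 2-fold count were tested on simulated data in which only brighter probes were changed. The choice of the brightest probe and the alternatives were not tested in this way. Python 3.11.15, numpy 2.4.6, pandas 2.3.3, matplotlib 3.10.9, R 4.3.3 and limma 3.58.1 were used.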

Additional observations from a re-analysis of the deposited data

How the results depend on the processing

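No paired analysis was possible because each group has 1 array, and for the same reason no array could be left out. A difference counts as moved past a technical SD (0.16), and a count past 1.5 times. Differences were recomputed for each of the 19 probes. Scaling to the spike-in controls lowers every difference by 1.11. It put 5 of the 10 genes and 12 of the 19 probes past 2-fold downward and 0 of either upward, and of the other Ca2+ genes 33 downward and 1 upward. Median scaling lowers every difference by 0.17 and gave 2 other Ca2+ genes more than 2-fold lower. Normexp background correction left 0 of the 10 genes and 0 probes more than 2-fold higher, and moved 4 of the 19 differences up and 5 down. With the mean of all probes, 0 of the 10 genes passed 2-fold downward. With no filter and no bound, 8 other Ca2+ genes were higher. At 4-fold, 0 of the 10 genes and 0 probes were higher, and of the other Ca2+ genes 0 were lower and 1 was higher. Of all genes, 681 were past 2-fold downward and 1670 upward, against 7909 and 207 after scaling to the spike-in controls, 1078 and 1323 with median scaling, and 980 and 6278 with no filter and no bound. Normexp moved the median of the genes it shared with the main setting by −0.13. Quantile normalization, cyclic loess, the deposited table, kept outlier spots and both filters moved 0 of the 19 differences. By their brightest probe, neither *Atp2b4* nor *Kcnn4* changed sign in any setting. The brightest *Atp2b4* probe stayed between −2.36 and −3.55, and *Kcnn4* between 0.13 and 1.36. The *Kcnn4* value of 0.13, after scaling to the spike-in controls, lies within the technical SD, so its sign in that setting is not settled. The cause of the changes was not tested beyond the shifts stated. The array labelled RFF4 has fewer spots well above background, which limits how far a lower signal can be measured.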
